A study of Mus musculus with 8 samples.

Results

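The glutamate receptor genes of the hippocampus and the genes of their auxiliary subunits were followed in 8 female mice, 4 untreated (Control) and 4 given hydroxyurea (Hydroxyurea). The set was a fixed list of 34 genes, taken by symbol whatever their values, out of 21368 genes that could be named on the array. It held 4 AMPA receptor genes, 7 NMDA receptor genes, 5 kainate receptor genes, 1 delta receptor gene, 7 metabotropic receptor genes, 6 genes of transmembrane AMPA receptor regulatory proteins (TARPs), 2 cornichon genes and 2 Neto genes. Per the labels, every mouse was a nontransgenic littermate from the APPswe695/PSEN1dE9 line on a C57BL/6J background, so none carried the transgenes. The treated mice drank hydroxyurea at 45 mg/kg/day for 10 weeks from an age of 9 to 14 weeks. All 4 Control mice were 19 weeks old at the end, as were Hydroxyurea 3 and 4, whereas Hydroxyurea 1 and 2 were 24 weeks old, and no untreated mouse of 24 weeks was measured. Hydroxyurea is an inhibitor of ribonucleotide reductase, the enzyme that makes the building blocks of DNA, and is given in sickle cell disease.

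Glutamate is the main excitatory transmitter of the hippocampus. AMPA receptors carry the fast synaptic current and NMDA receptors admit calcium when the cell is depolarised and a co-agonist is bound, which is the trigger of many forms of synaptic plasticity. Kainate receptors modulate release and excitability, delta receptors act largely as synaptic adhesion partners, and metabotropic receptors signal through G proteins. TARPs, cornichons and Neto proteins bind to the receptor channels and set their traffic to the membrane and their gating.

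Total RNA of each hippocampus was labelled with a single dye, Cy3, and hybridised to 1 array per mouse. Levels are log2 of the processed spot signal minus log2 of the 75th percentile of that array, so that 0 is the signal of a spot at that percentile, and a difference of 1 is a doubling of signal. The 75th percentile lay between 1052 signal units (Hydroxyurea 2) and 2417 (Control 3), from 59.6% to 76.7% of probes were well above background, and no spot was saturated. Control 1 stood apart in its noise, with a median coefficient of variation between repeat spots of 10.6% against 3.19% to 3.56% on the other arrays. The Control arrays occupied row 1 of the single slide and the Hydroxyurea arrays row 2, and a difference between rows cannot be told apart from one between groups. The neuronal markers Syt1 and Snap25 (mean levels 6.51 and 6.35) and the CA1 marker Mpped1 (4.93) were well above background on all 8 arrays. Gabra6, the receptor subunit that marks cerebellar granule cells, was above background on 0 arrays. Of the 8 cerebellum markers, 5 were well above background on all 8 arrays. The RNA came from whole tissue, so fewer cells of a type and less RNA per cell cannot be told apart in any value given here.

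Signals of 33 of the 34 genes were well above background on all 8 arrays. The exception was Grm6, the metabotropic receptor of retinal bipolar cells, which was above background on 0 arrays. Its scaled signals were -7.99, -8.37, -8.65 and -8.85 in Control and -7.46, -7.30, -7.71 and -8.42 in Hydroxyurea. On every array its signal lay 2.22 to 2.27 log2 units below the lowest signal called well above background. Its values thus moved with that limit from array to array, and Grm6 did not enter the main test between groups. The other 33 genes had a median level of 1.34, against 0.18 for the 16618 genes tested. The receptor genes also varied more between mice of a group, with a median pooled SD of 0.21 on the log2 scale against 0.15 for all genes tested.

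Among the pore-forming subunits of AMPA receptors, Gria1 gave the brightest signal (mean 4.33), followed by Gria3 (2.81), Gria4 (1.58) and Gria2 (1.57). The probes of Gria4 and Gria2 did not differ in order beyond their spread, with Gria4 above on 3 of 8 arrays. Among NMDA receptor subunits, Grin2c (2.61) and Grin1 (2.55), the obligatory subunit, were alike in signal and exchanged places, with Grin2c above on 4 of 8 arrays. Grin2b (1.96), Grin2a (1.61) and Grin3a (1.01) followed, and Grin2d (-3.64) and Grin3b (-4.10) lay far below them. Among kainate receptor subunits the order was Grik5 (3.45), Grik4 (3.28), Grik3 (1.22), Grik1 (-0.36) and Grik2 (-2.42). Among metabotropic receptors, Grm5 (4.51), which couples to phospholipase C, stood above Grm7 (2.0), Grm3 (1.35), Grm2 (-0.06), Grm8 (-0.29) and Grm4 (-0.88).

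Of the auxiliary subunits, Cnih2, a cornichon of hippocampal AMPA receptors, had the highest signal of all 34 genes (6.69), and its relative Cnih3 stood at 1.34. Neto1 (3.87), a partner of kainate and NMDA receptors, lay above Neto2 (0.85). The TARP probes ran from Cacng2, which encodes stargazin (1.73), through Cacng3 (0.80), Cacng5 (-0.81), Cacng8 (-2.14) and Cacng7 (-2.97) to Cacng4 (-3.39), an order that held on all 8 arrays. Of 25 neighbouring pairs within the 7 classes that hold more than 1 gene, 18 kept their order on all 8 arrays, and in 9 the ranges over the mice overlapped.

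**Figure D1:**
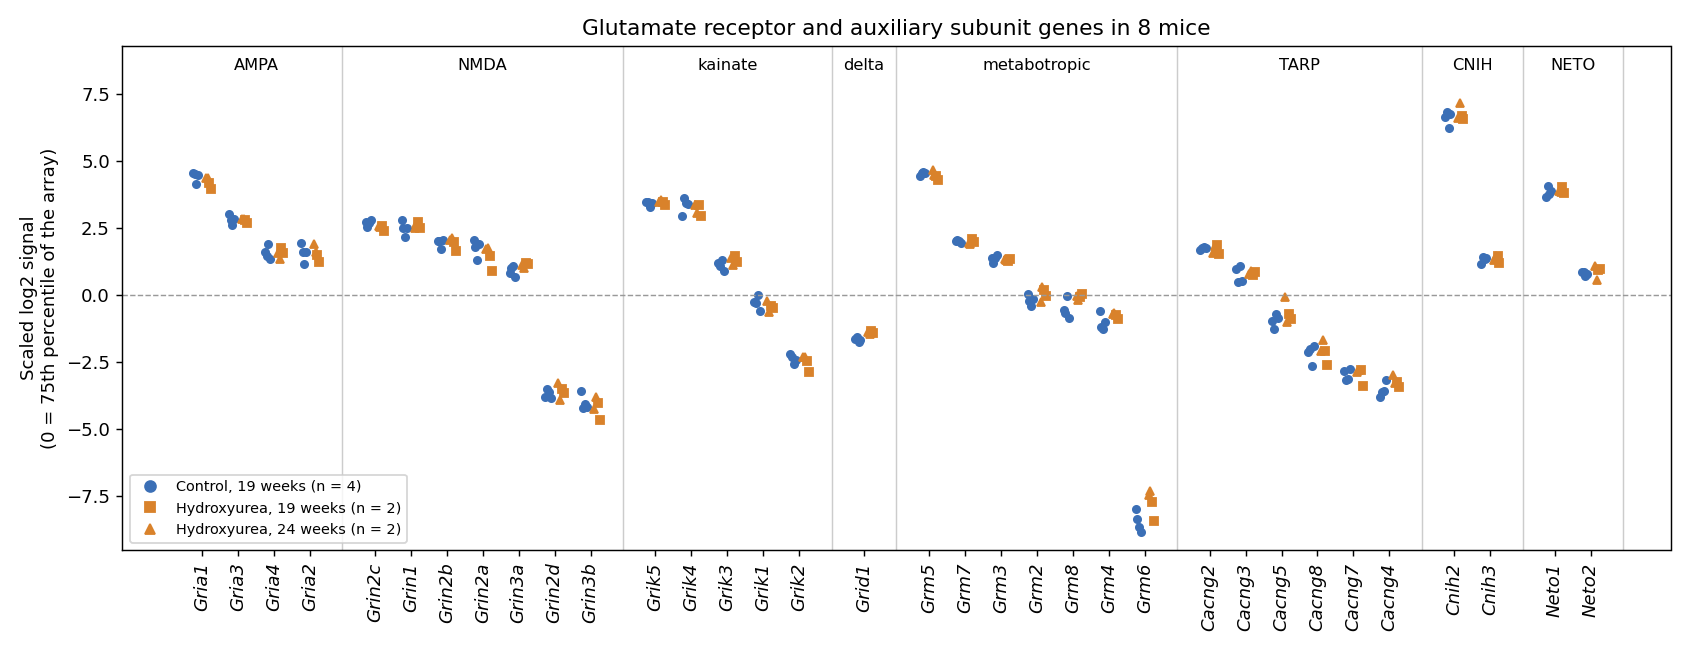
Level of each of the 34 genes in each of the 8 mice, as log2 signal minus the 75th percentile of the array, grouped by receptor class, with 1 point per mouse. Cnih2 lies highest with a mean of 6.69, Grm6 lies below background in every mouse, and the Control and Hydroxyurea points overlap for every tested gene but Grid1.

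These orders are orders of probe signal and not of transcript number, because probes differ in how well they bind. The set was covered by 49 probes, and 14 genes had more than 1. Between the brightest and the dimmest probe of such a gene the gap had a median of 2.49 log2 units, from 0.01 for Grik2 to 9.54 for Cacng2, and it exceeded 1 in 10 of the 14 genes. The second probes of Cacng2 and of Grik3 were above background on 0 arrays. When all probes of a gene were averaged, the order changed in the AMPA, NMDA, kainate, metabotropic and TARP classes. Quantile normalization left the order of every class as it was, and normexp background correction placed Grin1 above Grin2c and changed no other order. Cacng8 and Grik2, genes known for their hippocampal expression, gave low signals. Cacng8 had 1 probe, and the 2 probes of Grik2 lay close, at -2.42 and -2.44. How well these probes bind was not tested. Signal alone does not give transcript number, so neither signal can be read as a low transcript level.

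**Figure D2:**
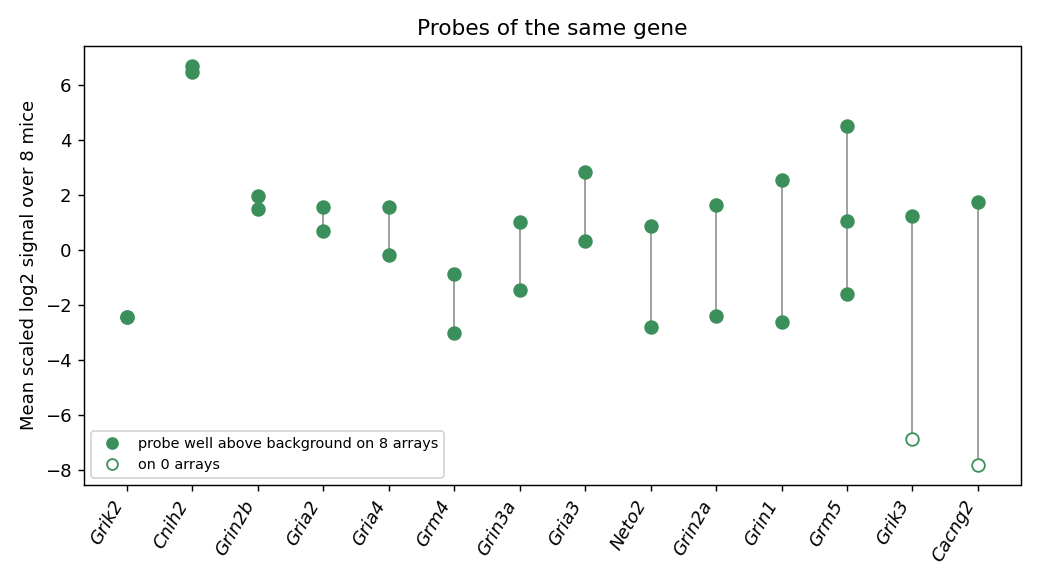
Mean level over the 8 mice of every probe of the genes with more than 1 probe, as log2 signal minus the 75th percentile of the array, with 1 point per probe. Probes of 1 gene lie a median of 2.49 log2 units apart, and those of Cacng2 lie 9.54 apart.

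The comparison of treated with untreated mice asked whether the receptor genes differed in level after 10 weeks of hydroxyurea. None of the 33 tested genes passed the test, which was limma's moderated test at an adjusted p of 0.05 over all 16618 genes, and 0 of all genes tested did so (0%). At an unadjusted p under 0.05, 3 of the 33 were higher in Hydroxyurea (9.09%), namely Grid1, Grm8 and Grin3a, and 0 were lower, whereas over all genes tested 3.53% were higher and 6.36% lower, or 9.89% in either direction. With median centring the genes at that p were Gria1 (-0.29) and Grin2c (-0.24), both lower, and 0 were higher, while over all genes 196 were higher and 1801 lower. The groups did not overlap for 1 of the 33, Grid1, which was higher in Hydroxyurea, against 2.38% of all genes tested higher and 5.11% lower, or 7.5% in either direction. The 33 differences ran from -0.31 (Grin2a) to 0.47 (Grm8), with a median of 0.03 against -0.00 over all genes, and their adjusted p-values from limma ran from 0.452 to 0.997.

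Of the 33 genes, 19 lay higher in Hydroxyurea (57.6%) and 14 lower, beside 48.7% higher over all genes tested. Centring each array on its median in place of its 75th percentile shifted the median of all genes to -0.09 and left 11 of the 33 higher (33.3%) beside 29.7% of all genes. Quantile normalization gave 21 higher (63.6%) beside 46% of all genes. For 27 of the 33 genes (81.8%) the 95% interval excluded a 1.5-fold change in either direction, beside 77.7% of all genes tested. The 6 whose intervals reached past 1.5-fold were Grin2a, Grin3b, Grm4, Grm8, Cacng4 and Cacng5. Data were simulated for all 16618 genes, with independent noise of each gene's spread within groups. There the same test called 41.8% of genes changed by 1.5-fold and 80.6% of those changed by 2-fold. The simulation held no shift shared by the genes of a mouse, and the receptor genes had a larger median spread than all genes tested. These shares may therefore be too high for the 33 genes.

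**Figure D3:**
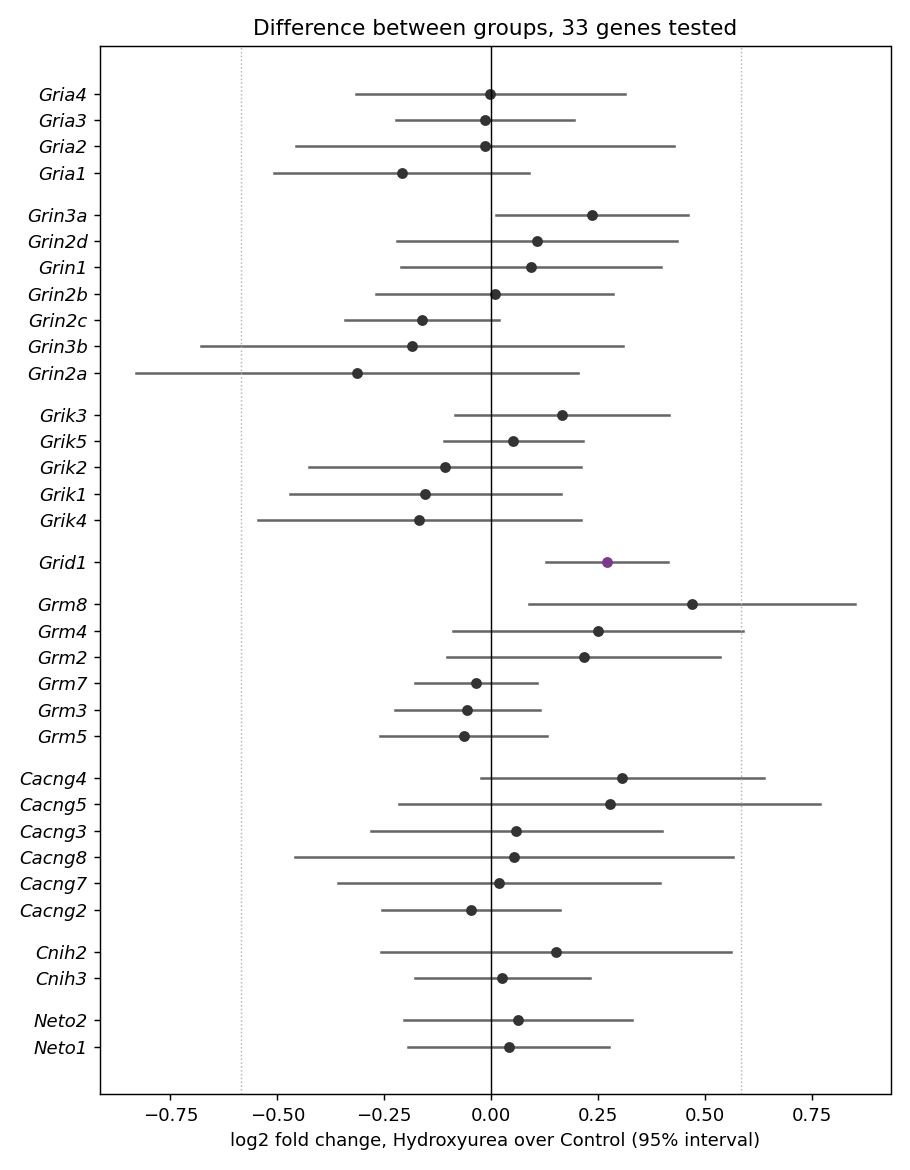
Difference in level between Hydroxyurea and Control for the 33 tested genes, on the log2 scale, with bars for the 95% interval and the gene whose groups do not overlap in a colour of its own. The differences run from -0.31 for Grin2a to 0.47 for Grm8, and no gene passed the adjusted test.

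All 4 AMPA receptor genes had group means within 0.21 log2 units of each other. Gria1, the subunit most tied to activity-dependent insertion at synapses, had levels of 4.58, 4.53, 4.15 and 4.47 in Control and 4.39, 4.37, 4.18 and 3.96 in Hydroxyurea. Hydroxyurea 4 was lowest, the other 3 treated mice lay inside the Control range, and the difference was -0.21 ± 0.13 (SE, n = 4 per group; adjusted p = 0.602, limma). Without Hydroxyurea 4 it was -0.12, and among the 19-week mice alone -0.36, at an adjusted p of 0.723. Gria2, the subunit that makes the channel impermeable to calcium, had levels of 1.94, 1.6, 1.15 and 1.63 in Control and 1.92, 1.6, 1.49 and 1.25 in Hydroxyurea, and the difference was -0.01 ± 0.19 with a 95% interval from -0.46 to 0.43. Its second probe gave -0.20 ± 0.08 at an unadjusted p of 0.0429 in a limma fit over every probe. Gria3 differed by -0.01 ± 0.09 (interval -0.22 to 0.19) and Gria4 by -0.0019 ± 0.14 (interval -0.32 to 0.31), and these intervals exclude a 1.5-fold change. The sign of the Gria2, Gria3 and Gria4 differences flipped under quantile normalization.

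Among NMDA receptor genes, Grin2a and Grin2b encode the regulatory subunits that dominate in the forebrain. Grin2a, which gives faster channel closure and gains in share as the brain matures, had levels of 2.05, 1.81, 1.33 and 1.90 in Control and 1.71, 1.76, 1.46 and 0.90 in Hydroxyurea. Hydroxyurea 4 stood well below every other mouse and the other treated mice lay inside the Control range, so that the difference was -0.31 ± 0.22 (adjusted p = 0.651, limma) and -0.13 without Hydroxyurea 4. The mean of all its probes differed by -0.05. Grin2b, the slower subunit of the young brain, had levels of 2.02, 2.01, 1.73 and 2.04 in Control and 2.08, 2.12, 1.99 and 1.66 in Hydroxyurea, a difference of 0.01 ± 0.12. On each array the log2 signal of Grin2a minus that of Grin2b does not depend on array scaling. It was 0.03, -0.21, -0.41 and -0.14 in Control and -0.36, -0.37, -0.52 and -0.76 in Hydroxyurea. Control 3 lay inside the Hydroxyurea range, and the group means differed by -0.32 (exact two-sided permutation test, p = 0.0857, and 0.286 after adjustment over 6 such pairs). With all probes of both genes averaged, the difference of this pair was -0.05.

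Grin1 differed by 0.09 ± 0.13, with Control 1 highest of all 8 mice (2.81) and Control 3 lowest (2.18). Grin2c, found largely in astrocytes and some interneurons in the hippocampus, had levels of 2.72, 2.53, 2.69 and 2.81 in Control and 2.57, 2.55, 2.57 and 2.40 in Hydroxyurea. Only Control 2 lay inside the Hydroxyurea range, and the difference was -0.16 ± 0.08 (adjusted p = 0.532, limma). With median centring the groups of Grin2c no longer overlapped, and the difference was -0.24. Grin3a, a subunit that lowers calcium entry and magnesium block, had levels of 0.83, 1.0, 1.07 and 0.68 in Control and 1.12, 1.02, 1.2 and 1.18 in Hydroxyurea. Control 3 was the mouse that overlapped, and the difference was 0.24 ± 0.10 (95% interval 0.01 to 0.46; unadjusted p = 0.0411, adjusted p = 0.494, limma). Its unadjusted p stayed under 0.05 in 10 of 20 alternatives, and with median centring its difference was 0.15. Its second probe gave 0.27 ± 0.09. Grin2d and Grin3b, both dim, differed by 0.11 ± 0.14 and -0.18 ± 0.21.

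No kainate receptor gene differed by more than 0.17 log2 units. Grik4, a high-affinity subunit concentrated in CA3, had levels of 2.95, 3.63, 3.43 and 3.42 in Control and 3.37, 3.08, 3.37 and 2.94 in Hydroxyurea, with the lowest mice of both groups level, and differed by -0.17 ± 0.16, or by -0.30 without Control 1 and -0.08 without Control 2. Grik5, its high-affinity partner, was among the most even of the genes, with levels between 3.28 and 3.55 over the 8 mice and a difference of 0.05 ± 0.07. Grik1 and Grik2, the channel-forming low-affinity subunits, differed by -0.15 ± 0.14 and -0.11 ± 0.14, and Grik3 by 0.17 ± 0.11. The signal of Grik5 relative to that of Grik2 differed by 0.16 between the groups (exact permutation test, p = 0.143, adjusted 0.286) and by 0.07 without Hydroxyurea 4.

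Grid1, the delta receptor gene, was the one gene whose groups lay apart. Its protein binds cerebellins and neurexins across the synapse. Its levels were -1.64, -1.57, -1.76 and -1.68 in Control and -1.39, -1.45, -1.33 and -1.40 in Hydroxyurea. Every treated mouse lay above every untreated mouse, by a difference of 0.27 ± 0.06 (95% interval 0.13 to 0.41; unadjusted p = 0.00237, adjusted p = 0.452, limma), which placed it at rank 69 of 16618 genes by p. Both treated ages lay above Control, and the 19-week mice alone differed by 0.30. The direction held in all alternatives that were run, while with median centring the difference was 0.19 and the groups overlapped. The cerebellum markers, of which 6 of 8 were tested and 5 lay higher, also had mean deviations that did not overlap, at -0.27 to 0.04 in Control and 0.05 to 0.15 in Hydroxyurea. Gabra6 was above background on 0 arrays, and 5 of the 8 markers were well above it on all arrays. The part of that tissue in the Grid1 values was not tested.

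Among metabotropic receptor genes, Grm8, a presynaptic receptor that inhibits release, had the largest difference of the set. Its levels were -0.56, -0.65, -0.03 and -0.87 in Control and -0.05, -0.16, -0.06 and 0.05 in Hydroxyurea. The treated mice were close together and 3 of the 4 untreated mice lay below them, but Control 3 lay inside their range. The difference was 0.47 ± 0.16 (95% interval 0.09 to 0.85; unadjusted p = 0.0216, adjusted p = 0.477, limma), and leaving out 1 mouse at a time gave 0.36 to 0.63. Its unadjusted p stayed under 0.05 in 14 of 20 alternatives. It was above 0.05 with median centring, among 19-week mice alone, without Control 1 and Hydroxyurea 2 together, and without Control 2, Control 4 or Hydroxyurea 4 alone. Grm4, of the same presynaptic group, had levels of -0.58, -1.17, -1.26 and -0.99 in Control and -0.70, -0.65, -0.76 and -0.90 in Hydroxyurea. The noisy array of Control 1 held its highest value, the other 3 untreated mice lay below every treated mouse, and the difference was 0.25 ± 0.15 (adjusted p = 0.585, limma), or 0.39 without Control 1 and 0.16 without Control 3. Grm7, the third tested gene of that group, was the most even of them, at 1.90 to 2.10 over all mice, with a difference of -0.03 ± 0.06.

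Grm2 and Grm3, which lower cyclic AMP, differed by 0.22 ± 0.14 and -0.06 ± 0.07. Grm5, the main phospholipase C-coupled receptor of hippocampal pyramidal cells, had levels of 4.45, 4.56, 4.58 and 4.56 in Control and 4.66, 4.49, 4.45 and 4.29 in Hydroxyurea. The treated mice spread to both sides of the untreated ones, and the difference of -0.06 ± 0.08 had a 95% interval from -0.26 to 0.13. The signal of Grm5 relative to that of Grm3 differed by -0.01 (exact permutation test, p = 0.943, adjusted 1).

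The TARP genes differed by -0.05 to 0.31 log2 units. Cacng4, the widest apart, had levels of -3.79, -3.62, -3.59 and -3.18 in Control and -2.99, -3.29, -3.26 and -3.41 in Hydroxyurea. Control 4 lay among the treated mice, and the difference was 0.31 ± 0.14 (adjusted p = 0.523, limma). Cacng5 had levels of -0.98, -1.25, -0.70 and -0.86 in Control and -0.08, -1.02, -0.69 and -0.90 in Hydroxyurea, so that its difference of 0.28 ± 0.21 rested on Hydroxyurea 1 and was 0.08 without that mouse. Cacng8, the TARP of hippocampal AMPA receptors, had levels of -2.13, -2.0, -2.64 and -1.91 in Control and -2.10, -1.68, -2.09 and -2.61 in Hydroxyurea, and differed by 0.05 ± 0.22. Its lowest mice, Control 3 and Hydroxyurea 4, came from both groups. Cacng2, Cacng3 and Cacng7 differed by -0.05 ± 0.09, 0.06 ± 0.15 and 0.02 ± 0.16.

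Cnih2 had levels of 6.64, 6.83, 6.22 and 6.75 in Control and 6.62, 7.19, 6.67 and 6.58 in Hydroxyurea, with Hydroxyurea 2 highest and Control 3 lowest of all, and differed by 0.15 ± 0.18. Without Hydroxyurea 2 the difference was 0.01, and without Control 3 it was 0.02. Cnih3, Neto1 and Neto2 differed by 0.03 ± 0.09, 0.04 ± 0.10 and 0.06 ± 0.12. A second probe of Neto2 went the other way, at -0.30 ± 0.13. Of 12 genes with at least 2 tested probes, 6 had probes that disagreed in direction, namely Gria4, Grin1, Grin2a, Grin2b, Grm5 and Neto2.

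**Figure D4:**
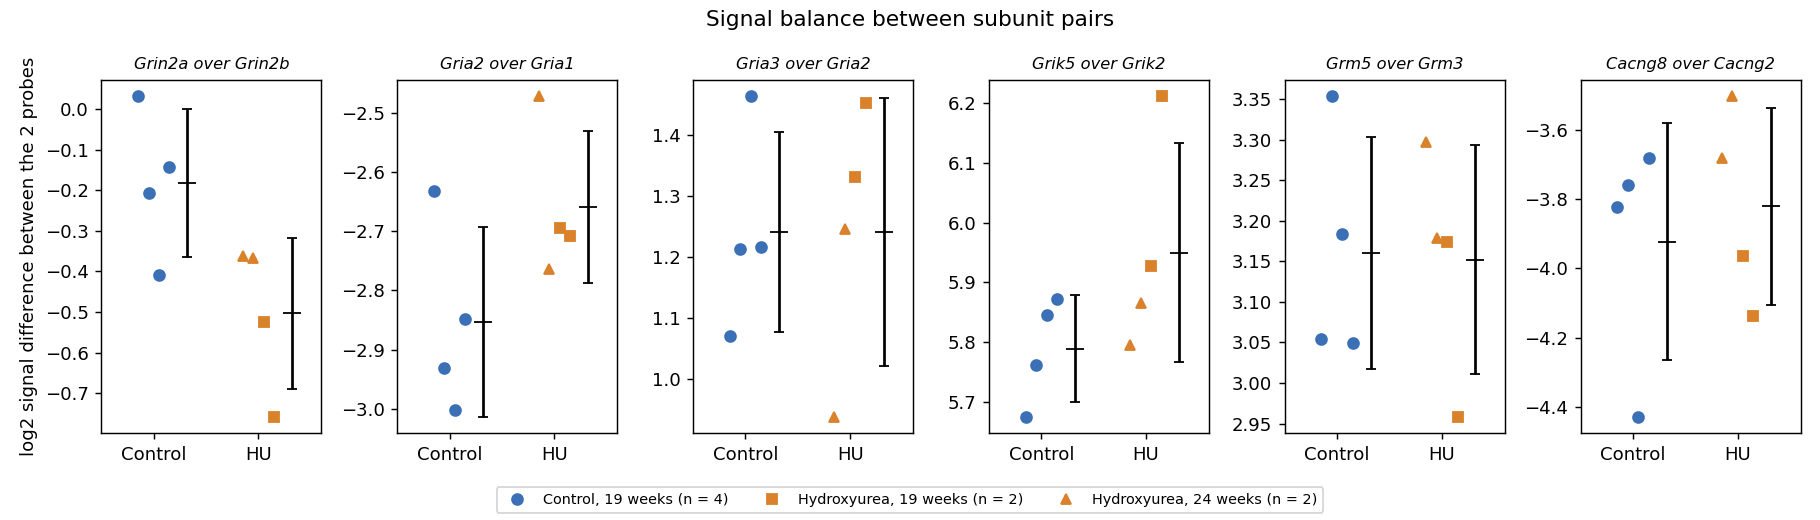
Log2 signal difference between both probes of 6 pairs of receptor genes on each array, with 1 point per mouse and the group mean ± SD. The Grin2a and Grin2b pair lies at a mean of -0.18 in Control and -0.50 in Hydroxyurea with 1 Control mouse inside the Hydroxyurea range, and no pair passed the exact permutation test.

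The 6 pairs were tested with an exact two-sided permutation test over the 8 mice, which with 70 assignments cannot give a p below 0.0286. Gria2 relative to Gria1, which bears on calcium permeability, stood at -2.85 ± 0.16 in Control and -2.66 ± 0.13 in Hydroxyurea (SD, n = 4 each), a difference of 0.19 (exact p = 0.114, adjusted 0.286). Gria3 relative to Gria2 had the same mean in both groups (1.24, exact p = 1), and Cacng8 relative to Cacng2 differed by 0.10 (exact p = 0.657, adjusted 0.986). With 1 mouse left out at a time the Gria2 and Gria1 pair differed by 0.13 (without Hydroxyurea 1) to 0.27 (without Control 1). With normexp background correction this pair differed by 0.09, and with all probes of a gene averaged by 0.10. The Grin2a and Grin2b pair differed by -0.40 (without Control 3) to -0.24 (without Hydroxyurea 4).

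Among the treated mice, the pair of 24 weeks was compared with the pair of 19 weeks in a fit with 3 group means. None of the 33 genes passed (adjusted p of 1 for each, limma), 0 did so at an unadjusted p under 0.05, while 1.26% of all genes tested were higher at that p and 1.44% lower, or 2.7% in either direction. The older mice lay higher for 21 of 33 (63.6%), beside 44.5% of all genes tested, with a median difference of 0.07 against -0.02. Grin2a was widest apart, at 1.74 in the 24-week and 1.18 in the 19-week mice, a difference of 0.55 ± 0.27 (SE, n = 2 per age) with a 95% interval from -0.08 to 1.18. Cacng8 (0.46 ± 0.29), Gria2 (0.39 ± 0.25), Grik2 (0.33 ± 0.17) and Grin3b (0.33 ± 0.30) also lay higher at 24 weeks. So did Gria1 (0.31 ± 0.16), Cnih2 (0.28 ± 0.25), Cacng7 (0.28 ± 0.22) and Grin2b (0.28 ± 0.15). In simulated data of the same kind this comparison called 52.2% of genes changed by 2-fold, a share with the same limits. For all of these genes Hydroxyurea 4 was the lowest treated mouse.

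**Figure D5:**
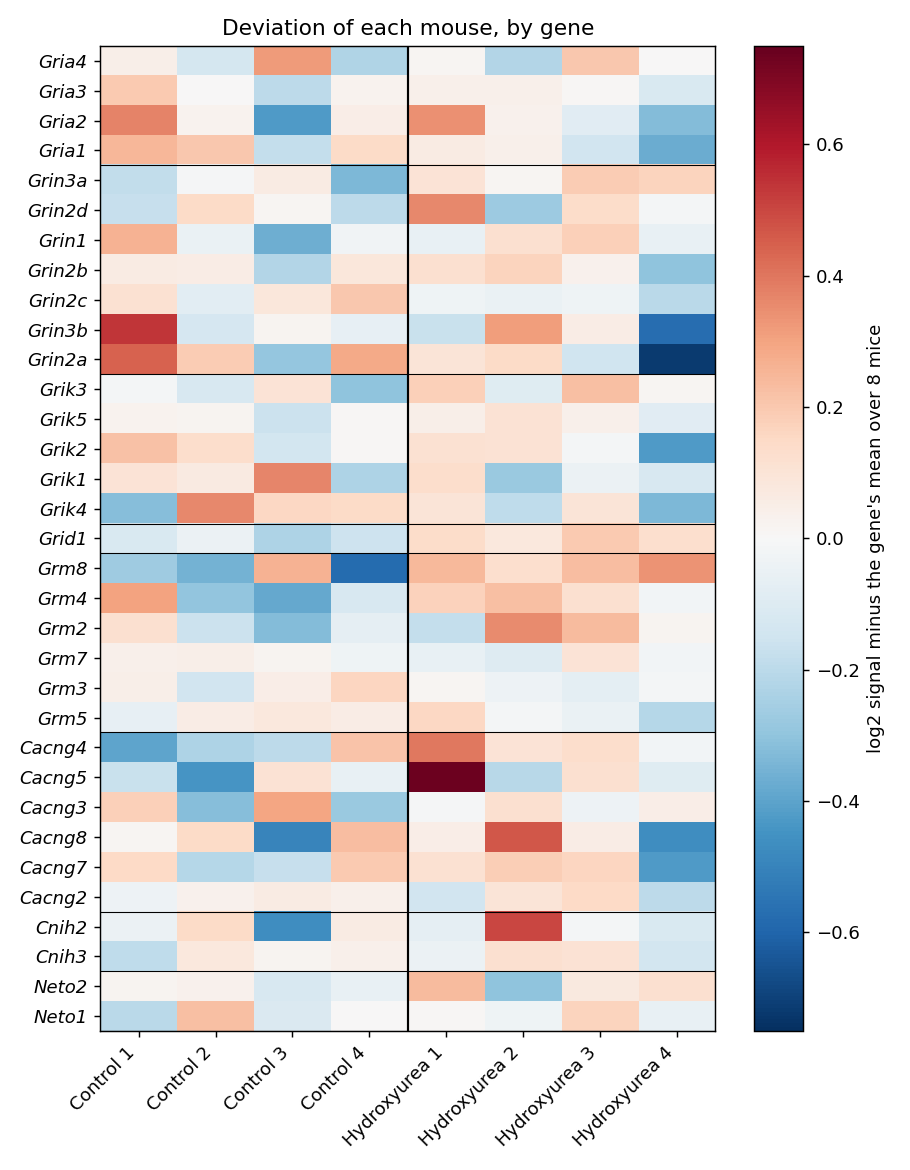
Deviation of each tested gene in each mouse from its mean over the 8 mice, on the log2 scale, with genes grouped by receptor class and mice in columns. Hydroxyurea 4 is lowest for 10 of the 33 genes and Control 3 for 9, while Hydroxyurea 1 and 3 are lowest for none.

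The spread within the groups had a pattern by mouse. Hydroxyurea 4 was the lowest of all 8 mice for 10 of the 33 genes (30.3%), beside 13.1% of all genes tested, and these were Gria1, Grin2a, Grin2b, Grin2c, Grin3b, Grik2, Grik4, Grm5, Cacng2 and Cacng7. Control 3 was lowest for 9 (27.3% beside 19.7%), among them Gria2, Gria3, Grin1 and Cnih2. Control 1 was highest for 8 (24.2% beside 20.6%), and Hydroxyurea 1 and 3 were lowest for 0. The mean deviation over the 33 genes was 0.04, -0.02, -0.07 and -0.02 in Control and 0.10, 0.05, 0.07 and -0.14 in Hydroxyurea, so the groups overlapped.

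Markers of neighbouring tissue and of cell layers also differed between these mice. All 12 choroid plexus markers, led in signal by Ttr, lay higher in Hydroxyurea with a median of 1.30. The mean deviation of the list was -2.15, -1.02, 0.82 and -0.36 in Control and -1.21, 0.95, 0.20 and 2.78 in Hydroxyurea, highest in Hydroxyurea 4. All 9 dentate gyrus markers lay lower, with a median of -0.25. Their mean deviation was 0.21, 0.21, -0.30 and 0.39 in Control and -0.20, 0.16, -0.15 and -0.31 in Hydroxyurea, lowest in Hydroxyurea 4 and Control 3, the mice with the most receptor genes at their lowest. Of 11 markers of thalamus and habenula 9 lay higher, with mean deviations of -0.28 to 0.07 in Control and -0.41 to 0.84 in Hydroxyurea. The part of these tissues in the receptor values was not tested. None of these markers passed the adjusted limma test, nor did any of the neuron (5 higher, 2 lower), CA1 (5 and 3), CA3 and CA2 (2 and 5), interneuron (7 and 2), striatum (6 and 4), cerebellum (5 and 1), astrocyte (5 and 5), oligodendrocyte (7 and 2), oligodendrocyte precursor (4 and 3), microglia (5 and 3) or endothelium (3 and 4) markers.

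The genes that act beside the receptors were taken from 5 lists, and 0 genes of any list passed the adjusted test. The 3 genes named of each list were those of smallest unadjusted p in it. In the order of the lists below, the groups did not overlap for 1, 2, 0, 2 and 0 genes, beside 7.5% of all genes tested. Of 18 genes of glutamate transport and metabolism 10 lay higher and 8 lower, with a median of 0.04. Slc38a3, which carries glutamine out of astrocytes, had the smallest p of the list, with levels of 0.84, 0.69, 0.56 and 0.79 in Control and 0.86, 1.25, 0.86 and 1.28 in Hydroxyurea. All treated mice lay above all untreated ones, by 0.34 ± 0.12 (adjusted p = 0.484, limma). The glial glutamate transporter Slc1a3 differed by -0.11 ± 0.08 and the serine carrier Slc1a4 by 0.18 ± 0.13.

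Among 10 genes that supply glycine and D-serine, the co-agonists of NMDA receptors, 6 lay higher and 4 lower. The groups did not overlap for Gldc, which breaks glycine down (-0.27 ± 0.10, adjusted p = 0.477, limma), or for Shmt2, which interconverts serine and glycine (0.19 ± 0.08, adjusted p = 0.494). Slc7a10, a carrier of both amino acids, differed by 0.21 ± 0.11. Of 17 tested partners of AMPA receptors outside the set, 8 lay higher and 9 lower, with Shisa7 at -0.24 ± 0.09, Olfm2 at 0.46 ± 0.17 and Syndig1, a synapse differentiation protein, at -0.36 ± 0.15.

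Of 26 scaffold and traffic genes 12 lay higher and 14 lower. Dlgap2, a partner of the PSD-95 scaffold, had groups that did not overlap at -0.14 ± 0.05, Dlg3, a scaffold that binds NMDA receptors, differed by -0.21 ± 0.08, and Homer1, which links metabotropic receptors to calcium stores, by -0.15 ± 0.07. Of 19 tested genes of metabotropic signalling 11 lay higher and 8 lower, with the kinases Prkca and Grk2 at -0.34 ± 0.10 and 0.18 ± 0.07 and the phospholipase Plcb4 at 0.41 ± 0.20. The medians of the last 4 lists were 0.05, -0.00, -0.01 and 0.03, beside -0.00 for all genes tested.

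The 250 bases before the annotated start were available for 23 of the 34 genes in RefSeq's GRCm38.p6 annotation. Their GC content had a median of 62.4%, against 55.2% for 17492 protein-coding genes, and they held a median of 16 CpG dinucleotides against 10. The GC box GGGCGG, searched on both strands, was found in 13 of 23 (56.5%), against 42.7% of all. The letters of the cAMP response element, TGACGTCA, were in 0 of 23 against 1.98%, those of an EGR motif, GCGGGGGCG, in 0 against 3.37%, and an exact NRF1 motif in 0 against 1.06%, all on both strands. TATAAA on the gene's own strand was found in that of Grin3b, against 8.38% of all. A match is a run of letters and not a site of binding. The windows of Grm8, the gene with the largest difference, of Cnih2, the gene with the highest signal, and of Grin1, the obligatory NMDA receptor subunit, are shown as genes that the levels and differences above turn on, and hold 1, 3 and 0 GC boxes. They are written 5′ to 3′ on the gene's strand, which is the minus strand for all 3, with each GC box in capitals as GGGCGG or as its reverse complement, and lie at chr6:28135147-28135396, chr19:5098522-5098771 and chr2:25319188-25319437.
Grm8: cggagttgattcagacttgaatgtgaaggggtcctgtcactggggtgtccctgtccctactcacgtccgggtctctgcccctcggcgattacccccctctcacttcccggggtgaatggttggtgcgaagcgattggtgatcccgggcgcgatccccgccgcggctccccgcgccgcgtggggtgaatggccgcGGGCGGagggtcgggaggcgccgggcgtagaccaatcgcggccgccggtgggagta
Cnih2: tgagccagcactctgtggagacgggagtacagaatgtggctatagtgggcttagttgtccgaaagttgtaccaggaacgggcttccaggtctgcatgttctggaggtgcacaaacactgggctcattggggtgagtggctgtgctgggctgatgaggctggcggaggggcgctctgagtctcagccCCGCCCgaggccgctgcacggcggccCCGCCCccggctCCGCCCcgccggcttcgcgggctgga
Grin1: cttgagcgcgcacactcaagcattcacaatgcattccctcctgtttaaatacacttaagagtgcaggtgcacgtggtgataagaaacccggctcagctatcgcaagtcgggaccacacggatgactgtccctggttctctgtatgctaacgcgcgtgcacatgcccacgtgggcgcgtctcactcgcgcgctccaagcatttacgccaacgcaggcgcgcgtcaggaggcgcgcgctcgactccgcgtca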

How the data were processed

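Hippocampal RNA of 8 mice, 4 per group, was measured on 1-colour Agilent arrays. Groups and ages came from the labels. Spots were quantified by Feature Extraction 12.0.3.1, per the file headers. The deposited intensity of a spot is a processed signal from which background was taken within its own array, with no step between arrays. The deposited files also hold the median intensity of the spot and of its surroundings, used with normexp (offset 50) as an alternative, and flags for outliers and background. The authors' own value table holds, as a score, the log signal in SD units of its array. Recomputing that score left differences of at most 0.005. Its columns had medians of -0.21 to -0.17, and it served for directions and counts.

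Spots of a probe, without outliers, were averaged as log2 signal, scaled to the array's 75th percentile and named by RefSeq accession through a GRCm38.p6 gene table. Of 55681 non-control probes, 28331 were named, for 21368 genes. The headers name build mm9, so array coordinates were left out. The brightest probe stood for its gene. A gene entered the test with that probe well above background on 4 or more of the 8 arrays and measured on 6 or more. The 16618 such genes were fitted with limma 3.58.1 under R 4.3.3, and two-sided p-values were adjusted over all of them (Benjamini-Hochberg). The fit was tested on simulated data. Pairs were tested by exact permutation (Python 3.11.15). The labels do not say which mice shared a cage, so p-values measure the spread between these mice.

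All 34 genes were named whatever their values, with the 3 genes of smallest p in each neighbouring list, and of the marker lists genes of highest signal or never above background. One of the marker genes that this rule takes is not reported here. The members, lists and pairs were chosen with earlier results of these data known. Alternatives changed the scaling, background correction, filter, variance model, choice of probe and mice used.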

Additional observations from a re-analysis of the deposited data

Results flagged for a closer look

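Over the 33 tested genes and the 6 pairs of genes, each in both groups, 78 groups of 4 values were examined, and in 6 of them 1 mouse stood apart from the other 3 by a gap that took up most of the range of its group (Dixon's test at the 95% level). Chance alone gives about 1 in 20 such groups, here 3.9. Control 3 was lowest in 2 of them, with Grin2b at 1.735 against 2.01 to 2.04 in the other Control mice and Grik5 at 3.283 against 3.46 to 3.47. Hydroxyurea 4 was lowest in another 2, with Grin2c at 2.402 against 2.55 to 2.57 and Cacng7 at -3.392 against -2.86 to -2.79. Grm5 was lowest in Control 1, the array with the noisiest repeat spots, at 4.447 against 4.56 to 4.58. Cnih2 was highest in Hydroxyurea 2, the array of lowest signal, at 7.189 against 6.58 to 6.67.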

How the results depend on the processing

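In all alternatives run for treatment and for age, 0 of the tested receptor genes passed the adjusted limma test. The count at an unadjusted p under 0.05, which was 3, became 6 with array weights, beside 19.6% of all genes. The 6 were Gria1, Grin3a, Grik3, Grid1, Grm4 and Grm8. With 1 mouse left out at a time the count ran from 1 to 4, beside 6.68% to 15.2% of all genes. Without Hydroxyurea 4 it was 1, Grid1, beside 7.71% of all genes. The median difference was -0.055 with median centring. Same-numbered mice had deviations correlated at 0.05, 0.20, -0.21 and -0.06, and only for number 2 was the own number the best partner. The numbers thus gave no clear sign of pairing, though so few correlations cannot exclude it. With the replicate block 2 genes (Grid1 and Grm8) were at an unadjusted p under 0.05, beside 7.93% of all genes, and 0 passed the adjusted test. Over all genes the count at an unadjusted p under 0.05 moved from 1643 to 3252 with array weights, 2483 without the filter, 1103 with 19-week mice, and between 1110 (without Control 4) and 2522 (without Control 1) with 1 mouse left out.

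Some differences changed direction, and the cause was not tested. With 19-week mice alone this held for Cacng7 (-0.1203), Cacng8 (-0.1761), Cnih3 (-0.0008), Gria4 (0.101), Grin2b (-0.1304), Grm7 (0.024) and the Cacng8 and Cacng2 pair (-0.1288). With array weights it held for Cacng8 (-0.0844), Cnih2 (-0.0161), Cnih3 (-0.0136), Gria4 (0.1781), Grin2b (-0.0229), Grm7 (0.005) and Neto1 (-0.021). In the deposited z scores it held for Cacng2 (0.0025), Cacng7 (-0.03), Cacng8 (-0.0125), Gria2 (0.005), Gria3 (0.02), Gria4 (0.0075), Grin2d (-0.015), Grm5 (0.0225) and Grm7 (0.01). With the mean of all probes it held for Cacng2 (0.0768), Gria4 (0.0697), Grin2b (-0.0041), Grm5 (0.0111), Neto2 (-0.1185) and the pairs of Cacng8 and Cacng2 (-0.0231) and of Grm5 and Grm3 (0.0665). With median centring it held for Cacng3 (-0.0223), Cacng7 (-0.0629), Cacng8 (-0.028), Cnih3 (-0.055), Grik5 (-0.0293), Grin2b (-0.0734), Neto1 (-0.0407) and Neto2 (-0.0182). With normexp it held for Gria4 (0.0598), Grin2b (-0.0069), Grin3b (0.0656) and Neto1 (-0.0421), and with quantile normalization for Cacng7 (-0.0465), Gria2 (0.0002), Gria3 (0.0161) and Gria4 (0.018). With Control 1 and Hydroxyurea 2 left out together, a choice made after seeing the data, it held for Cacng8 (-0.0796), Cnih3 (-0.0692), Gria2 (0.0932), Gria3 (0.0353), Gria4 (0.0869), Grin2b (-0.0233) and Neto1 (-0.0019).

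With 1 mouse left out at a time, the ranges that crossed 0 were -0.1058 to 0.0102 for Cacng2, -0.0377 to 0.1687 for Cacng3, -0.0493 to 0.1628 for Cacng7, -0.1022 to 0.2172 for Cacng8, -0.0327 to 0.0762 for Cnih3, -0.1579 to 0.1064 for Gria2, -0.0828 to 0.0498 for Gria3, -0.0778 to 0.1034 for Gria4, -0.1729 to 0.0151 for Grik2, -0.0134 to 0.1959 for Grin1, -0.0647 to 0.1094 for Grin2b, -0.0199 to 0.1222 for Neto1 and -0.0042 to 0.1748 for Neto2. For the pairs they were -0.0675 to 0.207 (Cacng8 and Cacng2), -0.0567 to 0.0561 (Grm5 and Grm3) and -0.0698 to 0.1021 (Gria3 and Gria2). With 4 mice per group, 41.8% of simulated 1.5-fold changes were called, a share that may be too high for the receptor genes. Smaller differences are therefore poorly resolved here.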
